A study of Rattus norvegicus with 4 samples.

Results

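Of the 25810 genes listed for the PC12 clones, 189 named genes were read in the high-REST clone hrPC12 and had no read at all in the low-REST clone wtPC12. A gene belonged to this set if it had 0 reads in both wtPC12 libraries and a sum of at least 20 reads in the 2 hrPC12 libraries. In all, 292 genes met this rule on reads. The 103 left out were 52 with protein-derived names ending in _RAT, 30 with provisional names (LOC, RGD or ENSRNO), and 21 left aside by the first letters of their names or by name (those that begin like collagens, homeobox and other developmental transcription factors, potassium channels, integrins, laminins, matrix proteases, semaphorins, cadherins, Wnt ligands and their receptors, together with Mitf, Sod3 and Fmo2). The members were chosen by their reads in the 4 libraries, so their difference between the clones is described here and not tested.

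PC12 is a line derived from a rat pheochromocytoma, a tumour of the adrenal chromaffin cell. wtPC12 cells are the ordinary, neurosecretory cells with low REST, and hrPC12 (formerly PC12-27) is a clone of the same line with high REST. No transgene or treatment is named for either. Bulk RNA of each clone was sequenced in 2 libraries, and since each REST level is 1 clone, REST and every other difference between the clones cannot be told apart. The labels do not say whether the libraries of a clone came from separate cultures, so errors and p values measure only the spread between these libraries.

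REST is a zinc-finger repressor which recruits histone deacetylases and other cofactors to a DNA element known as RE1 and keeps neuronal genes off outside the nervous system. Neurosecretory cells hold little REST and express the enzymes of catecholamine synthesis, granins and vesicle proteins. Genes of muscle, epidermis, connective tissue or blood cells are in large part silent in such cells, since each lineage reads its own restricted genes beside those that all cells share.

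wtPC12 replicate 1 held 20975027 reads on genes and replicate 2 held 21999191, whereas the hrPC12 libraries held 27246502 and 21634943. The totals of hrPC12 were thus 1.14 times those of wtPC12. Rest had 37 and 128 reads in wtPC12 and 1139 and 904 in hrPC12, with a log2 FC (hrPC12/wtPC12) of 3.42 (standard error 0.57, adjusted p = 0.0115 by the quasi-likelihood test of edgeR). Rest thus missed the threshold of 0.01 for the adjusted p and was not called. Of the 12 tested genes in a list of chromaffin markers, 8 were lower in hrPC12 and none higher, and their median log2 FC was -5.36. Over all 13726 tested genes, 5.46% were lower and 4.84% higher. Th, the rate-limiting enzyme of catecholamine synthesis, had 174452 and 128957 reads in wtPC12 and 22124 and 20755 in hrPC12. The hrPC12 libraries therefore held less of the markers of the cell that PC12 is named for. In bulk RNA, fewer cells of a type and less RNA per cell cannot be told apart. The calls depend on wtPC12 replicate 2: without it edgeR called 0 of 13590 genes, with 6798 at an unadjusted p under 0.05, whereas without wtPC12 replicate 1 it called 1162 of 13634.

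The 189 members made up 1.56% of the 12116 genes with a read and a name that passed the rule, and the 292 genes of any name made up 1.59% of the 18416 genes with a read. Genes read only in wtPC12, by the same rule with the clones exchanged, were 74 (0.611%), and 107 (0.581%) with any name. The members were thus 2.55 times as many as the genes read only in wtPC12, and 1.42 times as many when hrPC12 replicate 1 was left out and 10 reads were asked of replicate 2. They were not abundant: together they held 14322 reads in hrPC12 replicate 1 and 10384 in replicate 2, or 0.0526% and 0.0480% of the reads on genes. The sum of a member ran from 20 to 1648 reads with a median of 56. It lay under 50 in 87 members, was at least 100 in 62 and at least 500 in 12, and the 10 members with most reads held 32.9% of all reads of the set. For the genes read only in wtPC12 the median sum was 77 and the highest 864.

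The requirement of 0 reads in wtPC12 is one step of a gradual scale. Among named genes with at least 20 hrPC12 reads, 189 had no wtPC12 read, 96 had 1, 61 had 2, 47 had 3 and 20 had 10. In the opposite direction the numbers were 74, 45, 39, 31 and 9. The genes with 1 wtPC12 read included several with more hrPC12 reads than any member. Mpeg1, a pore-forming protein of macrophages, had 1892 and 1396 reads in hrPC12, Aff3, a nuclear protein of lymphoid tissue, 1559 and 1436, and A2m, a plasma protease inhibitor, 1090 and 1011. At the other edge, Expi (12 and 8 reads), Trim29 (8 and 12) and Ebf2 (4 and 16) entered the set with the lowest sum of 20, whereas Il17rb (11 and 8), Cd28 (10 and 9), Chit1 (9 and 10) and Adrb3 (8 and 11) missed it with 19. Members and non-members on the 2 sides of each limit therefore differed by a read or a few. A count of 0 allows up to 3 reads per library, or 3.29 normalized counts on average in wtPC12, and each fold given here as "at least" is the mean normalized count in hrPC12 over this floor. These bounds ran from 2.77 to 231 with a median of 7.80. They allow only for the counting error of a 0 in wtPC12. The hrPC12 mean enters as measured, so its counting error and the spread between libraries are not covered. The reads also carry no molecular identifiers.

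**Figure D1:**
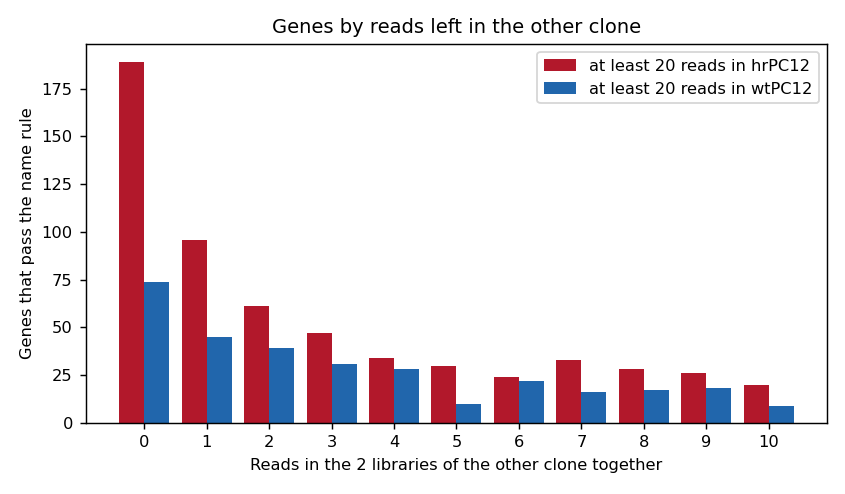
Number of named genes with at least 20 reads in one clone (y axis) by the number of reads in the other clone (x axis, 0 to 10 reads), for hrPC12 and for wtPC12. The hrPC12 numbers fall from 189 at 0 reads to 96 at 1 and 20 at 10, and the wtPC12 numbers from 74 to 45 and 9, without a gap between 0 and the next step.

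Genes of intracellular signalling and trafficking held the member with most reads. Ptpro, a receptor-type tyrosine phosphatase, had 889 and 759 reads in the hrPC12 libraries, or 760 ± 10.9 normalized counts (SD, n = 2), at least 231-fold over the wtPC12 floor. Ston1, an adaptor of endocytosis, had 364 and 320 reads (at least 96.0-fold). Inpp4b, a phosphatase of phosphoinositides, had 396 and 172 reads, further apart than the depth of the libraries. Both calcium/calmodulin-dependent phosphodiesterases in the set were read at similar depth in the 2 libraries, Pde1c with 146 and 126 reads and Pde1a with 100 and 82. Also read were Gulp1, an adaptor for the engulfment of dying cells (167 and 139), Wwc2, a protein of the Hippo pathway (215 and 121), Akap2, which anchors protein kinase A (144 and 105), and the caveolar proteins Sdpr (97 and 88) and Cav2 (44 and 56). The 20 members of this group had sums from 26 to 1648 reads with a median of 153.5, the highest median among the groups described here, and 19 of them had at least 10 reads in each hrPC12 library. Read numbers are not divided by transcript length, so they rank detection and not the level of one gene against another.

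**Figure D2:**
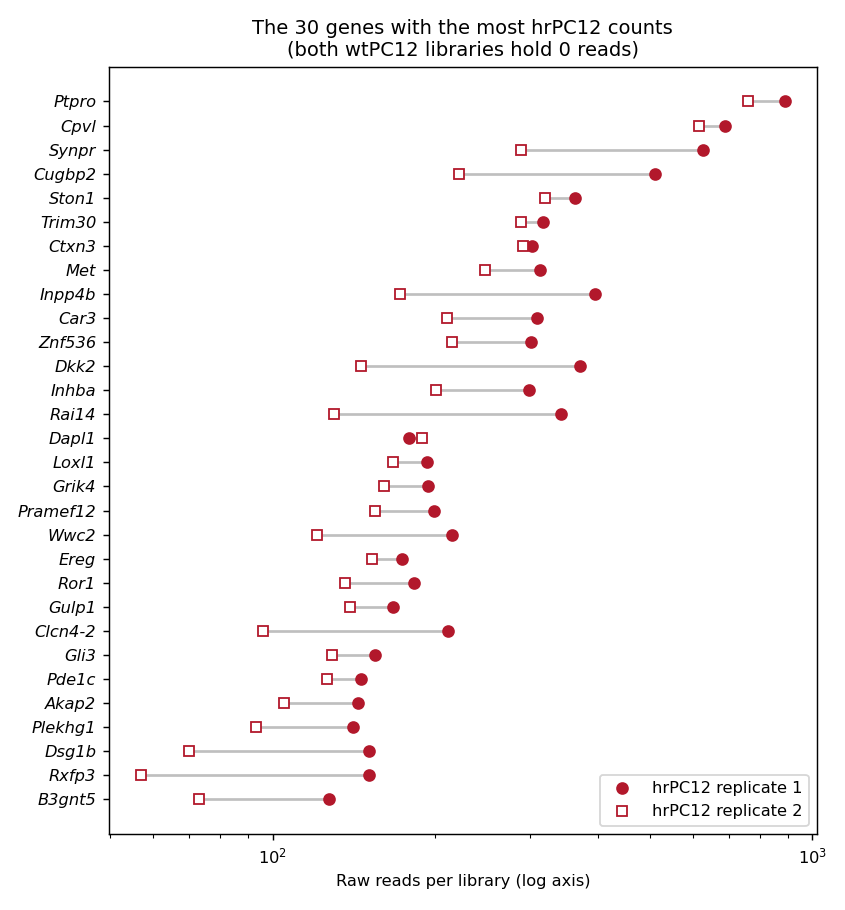
Raw reads (x axis, log scale) in hrPC12 replicate 1 (filled circles) and replicate 2 (open squares) of the 30 members with the highest mean of normalized counts, in the order of that mean. Both wtPC12 libraries hold 0 reads of each and are not drawn. Ptpro stands first with 889 and 759 reads, and the points of Synpr, Cugbp2, Inpp4b, Dkk2 and Rai14 lie far apart, with replicate 1 higher.

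Among growth factors, hormones and their receptors, ligands and receptors were both present. Of the ligands, Inhba, the subunit that forms activin A, had 298 and 201 reads (at least 69.2-fold), Ereg, a ligand of the EGF receptor, 174 and 153 (at least 45.9-fold), and Dkk2, a secreted modulator of Wnt receptors, 371 and 146 (at least 70.2-fold). Fgf10, a mesenchymal growth factor, had only 30 and 18. Of the receptors, Met, the receptor of hepatocyte growth factor, had 313 and 247 reads, or 257 ± 10.6 normalized counts (SD, n = 2), and Ror1, a tyrosine kinase-like receptor for Wnt5a, had 183 and 136. The growth hormone receptor Ghr (58 and 22), the gastrin-releasing peptide receptor Grpr (50 and 29), the relaxin-3 receptor Rxfp3 (151 and 57) and the BMP receptor Bmpr1b (17 and 10) were read less. Pth2r, a receptor of the parathyroid hormone family, was among the members with a lower count in replicate 1 (13 and 24). The ligands Ereg and Inhba and the receptors Met and Ror1 were read in both hrPC12 libraries within 1.5-fold of each other before normalization.

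Of 19 genes of fibroblast growth factor signalling (ligands, receptors, inhibitors and target genes), 4 had no read in any library and 11 were tested, of which 3 were called higher in hrPC12 and none lower (median log2 FC 0.98). Fgfr3, which had 576 and 901 reads in wtPC12 and 7180 and 3426 in hrPC12, was higher with a log2 FC of 2.58 (standard error 0.35). Fgf10 was the only gene of this list in the set. Fgf7, a close relative of Fgf10, had 1 and 0 reads in wtPC12 and 536 and 492 in hrPC12, a ratio of 867 with an exact 95% interval of 155 to 34290 for counting error.

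A further 14 members regulate transcription or RNA, and the sum of reads in this group ran from 20 to 733 with a median of 46. Cugbp2, a splicing and mRNA stability factor, had 512 and 221 reads, and Znf536, a zinc-finger repressor known from neural differentiation, 301 and 215. Gli3 and Gli2, the transcription factors through which hedgehog signals act, had 155 and 129 reads (131 ± 0.5 normalized counts, SD, n = 2) and 24 and 18 reads. Bcl6, a repressor of germinal centre B cells, had 79 and 44 reads, Zbtb16, a repressor of progenitor cells, 57 and 35, Ahr, the receptor of aryl hydrocarbons, 36 and 28, and Tfec, a relative of Mitf, 25 and 25. Gcm2, the master factor of the parathyroid (16 and 12), and Lmx1a, a homeodomain factor of dopaminergic neurons (17 and 11), had few reads in either library. The testis factor Dmrt1 (4 and 17) and Ebf2 (4 and 16) stood among the lowest in replicate 1 relative to replicate 2.

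The other genes of the hedgehog pathway were mostly read in both clones. Of 11 genes found, 6 were tested, 1 was higher in hrPC12, none was lower, and the median log2 FC was 0.40. The gene that rose was Smo, the transmembrane transducer of the pathway, with 27 and 58 reads in wtPC12 and 1055 and 930 in hrPC12 (log2 FC 4.32, standard error 0.40, adjusted p = 0.00199, edgeR). Gli1, the third factor of the family, had 7 and 20 reads in wtPC12 and 66 and 64 in hrPC12, with a log2 FC of 2.05 (standard error 0.54) that missed the threshold (adjusted p = 0.042, edgeR). Ptch1, the receptor that holds Smo inactive, had 508 and 1412 reads in wtPC12 and 998 and 769 in hrPC12, and its libraries overlapped between the clones. The ligand Shh had 1 read in the 4 libraries together, whereas Dhh, another ligand, had 157 and 223 reads in wtPC12 and 87 and 99 in hrPC12 (log2 FC -1.25, adjusted p = 0.043, edgeR) and was not called.

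Another 15 members are genes of skeletal muscle, and their sums ran from 21 to 159 reads with a median of 57. They covered the contractile apparatus, fusion and excitation: Myl1, a myosin light chain of fast fibres, had 86 and 73 reads (73.3 ± 0.8 normalized counts, SD, n = 2, at least 22.3-fold), and Myh13, a myosin heavy chain of extraocular muscle, 62 and 54. Tmem8c, known as myomaker and required for the fusion of myoblasts, had 54 and 49. Cacng1, the gamma subunit of the muscle calcium channel, had 55 and 50 reads, Trdn, which anchors calsequestrin in the sarcoplasmic reticulum, 18 and 18, and Chrng, the fetal gamma subunit of the muscle acetylcholine receptor, 13 and 8. The Z-disc proteins Myoz2 (43 and 28), Synpo2 (62 and 55) and Mypn (19 and 6) and the muscle caveolin Cav3 (25 and 15) were also members. In 12 of the 15 both libraries held at least 10 reads.

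Muscle genes outside the set were read in either clone. Myh2, a fast myosin heavy chain, had 65 and 54 reads in wtPC12 and 4692 and 3841 in hrPC12 (log2 FC 5.90, standard error 0.26, adjusted p = 0.000328, edgeR). It was the only called gene among 7 tested relatives of Myh13 (median log2 FC 0.19). None of 4 tested relatives of Myl1 was called (median log2 FC -0.19). Synpo2l, the nearest relative of Synpo2, had 1 read in each wtPC12 library and 1307 and 1124 in hrPC12. Its ratio was 1026, with an exact 95% interval of 284 to 8473 for counting error. In a list of smooth and cardiac muscle genes 1 of 9 tested genes, the cardiac actin Actc1, was higher and none lower, with a median log2 FC of 0.19. Synpo2 was its only member of the set.

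The promoters of Myh13 and Myoz2 are shown as those of the muscle members with both an E-box of the form bound by muscle regulatory factors (CAGCTG) and an AP-1 element (TGANTCA). The members Wdr72 and Capn6, placed in no group, hold both elements as well and are not shown. The sequences are from RefSeq, rat build GRCr8, on the strand of the gene, and run 5′ to 3′ from 250 bases before the start to 50 after it. Capitals mark the elements. Myh13 is at chr10:52511523-52511822 on the plus strand and Myoz2 at chr2:213852729-213853028 on the minus strand.
Myh13: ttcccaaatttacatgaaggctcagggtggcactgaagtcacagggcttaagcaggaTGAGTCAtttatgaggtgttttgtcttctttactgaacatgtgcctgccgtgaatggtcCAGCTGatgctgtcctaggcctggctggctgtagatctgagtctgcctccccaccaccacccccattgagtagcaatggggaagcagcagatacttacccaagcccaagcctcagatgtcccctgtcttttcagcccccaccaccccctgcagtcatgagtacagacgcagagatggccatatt
Myoz2: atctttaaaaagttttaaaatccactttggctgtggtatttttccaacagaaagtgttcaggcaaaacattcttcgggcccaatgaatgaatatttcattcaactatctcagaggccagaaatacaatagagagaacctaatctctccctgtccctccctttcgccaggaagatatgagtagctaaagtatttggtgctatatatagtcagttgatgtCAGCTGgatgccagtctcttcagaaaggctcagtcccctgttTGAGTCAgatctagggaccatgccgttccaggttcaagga
Counted from 1 at the left end, TGANTCA starts at base 58 and CAGCTG at base 117 in Myh13, and CAGCTG at base 219 and TGANTCA at base 261 in Myoz2. Of the 10 muscle members with a promoter 5 held CAGCTG (Myh13, Myoz2, Ppp1r3a, Cav3 and Chrng), compared with 24.0% of the 129 members with a promoter, 16.7% of genes with a read and 15.1% of all promoters. It was also in 5 of the 12 members of no group (41.7%), in 33.3% of the channel and of the matrix members and in 22.6% of genes called lower in hrPC12. A match of these letters is a description of the window and not a binding site.

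Another 10 members belong to stratified epithelia, with sums from 20 to 221 reads and a median of 55. The desmosomal cadherins Dsg1b (151 and 70 reads, at least 30.2-fold), Dsg3 (80 and 43) and Dsc3 (53 and 25) were read together with Tp63, the p53 relative that maintains basal epithelial cells (46 and 32). The uroplakins of the bladder surface, Upk1b (24 and 16) and Upk3b (18 and 23), and 2 keratin-associated proteins of hair, Krtap3-3l1 (20 and 11) and Krtap1-5 (19 and 7), had fewer reads. The other epithelial markers were called lower or not at all. Of 7 tested genes in a list of them 3 were lower in hrPC12 and none higher (median log2 FC -1.41), and Epcam, an adhesion molecule of simple epithelia, had 7370 and 6336 reads in wtPC12 and 837 and 715 in hrPC12. The keratin Krt19, in contrast, had 3 reads in each wtPC12 library and 34 and 27 in hrPC12 (log2 FC 3.05, adjusted p = 0.0122, edgeR, not called), Krt7 had 1 and 2 against 28 and 3, and Krt14 had 0 and 0 against 6 and 6. The summed level of the list, which Krt8 leads with 32714 and 28368 reads in wtPC12 and 8816 and 7275 in hrPC12, was 48500 and 37583 normalized counts in wtPC12 and 8786 and 8746 in hrPC12. Krtap genes are near copies of each other, so reads may be divided among them.

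Genes of neurons and synapses made up 22 members, a class that wtPC12 cells express widely. Synpr, a protein of synaptic vesicles, had 627 and 289 reads (412 ± 169 normalized counts, SD, n = 2), and Ctxn3, a small neuronal membrane protein, 303 and 291 (at least 83.7-fold). Among glutamate receptor subunits, Grik4 of the kainate type had 194 and 161 reads (164 ± 0.9 normalized counts, SD, n = 2) and Grin2a of the NMDA type 47 and 26. Lrrtm3 and Lsamp, adhesion proteins of synapses and axons, had 80 and 78 and 70 and 61 reads. Slc17a6, a vesicular glutamate transporter, had 57 and 44, Crhbp, which binds corticotropin-releasing hormone, 78 and 76, and the neuropeptide somatostatin (Sst) 20 and 19. Dcx, a microtubule protein of migrating neurons, had 29 and 9. The group ran from 21 to 916 reads with a median of 65.5, and 18 of the 22 had at least 10 reads in each library.

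For some of these the relatives of the same family went the opposite way. Grin1, the obligate NMDA receptor subunit, had 5387 and 6675 reads in wtPC12 and 3 and 10 in hrPC12 (log2 FC -10.05, standard error 0.51, adjusted p = 0.000478, edgeR). Grin2b, in contrast, had 1 and 0 reads in wtPC12 and 686 and 591 in hrPC12, a ratio of 1077 with an exact 95% interval of 193 to 42590 for counting error. In hrPC12 the reads of Grin2a and Grin2b were therefore accompanied by few of Grin1. The calcium channel gamma subunits were also called in the direction opposite to the members. Cacng1 and Cacng6 (15 and 12 reads), both of muscle, were in the set, whereas Cacng2, which traffics AMPA receptors, had 133 and 296 reads in wtPC12 and 0 and 1 in hrPC12, and Cacng7 had 964 and 1402 against 140 and 140 (log2 FC -3.30, standard error 0.27, adjusted p = 0.00142, edgeR).

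Genes of immunity and the interferon response made up 22 members, with sums from 21 to 606 reads and a median of 35.5. Trim30, an interferon-induced regulator of Toll-like receptor signalling, had 317 and 289 reads (280 ± 17.0 normalized counts, SD, n = 2, at least 85.2-fold) and Ifi204, a DNA sensor, 94 and 76. Il15, a cytokine which sustains natural killer cells, had 118 and 71 reads, Cxcr3, a chemokine receptor of T cells, 61 and 67, and Il1rl1, the receptor of interleukin 33, 54 and 59. The C-type lectin Clec1a (49 and 41), the helicase Ddx60 (26 and 30), the sialic acid receptor Siglec10 (24 and 27) and the chemokine Xcl1 (17 and 23) followed. Cxcl2 (15 and 11) and Cxcl3 (13 and 12) are near-identical copies, so the division of reads between them is uncertain. In 17 of the 22 both libraries held at least 10 reads, and the exceptions included Gbp1 (21 and 5) and Csf2rb (9 and 16).

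Markers of white blood cells were set beside these genes. Ptprc, the pan-leukocyte phosphatase, had 1 read in the 4 libraries together, Tyrobp 1, Itgam 1 and Cd8a none, and Csf1r had 4 and 2 reads in wtPC12 and 1 and 2 in hrPC12, so these were at or near the floor in both clones. Spi1, a transcription factor of myeloid cells, had 3 reads in each wtPC12 library and 24 and 14 in hrPC12, and Cd68, of macrophages, had 20 and 28 against 89 and 86, with log2 FC 2.36 and 1.63 that were not called. Of the 20 markers found, 8 were tested, 2 were higher (Cd14 with 10 and 9 reads in wtPC12 and 409 and 407 in hrPC12, and Mpeg1), 1 was lower (Coro1a with 1088 and 1151 against 287 and 287), and none was a member. Their summed level was 1363 and 1262 normalized counts in wtPC12 and 2320 and 2252 in hrPC12. Of 19 tested chemokines, cytokines and their receptors 5 were higher and 1 lower (median log2 FC 1.18), and Cxcl2, Il15 and Il1rl1 were the members in this list. Il33, the ligand of Il1rl1, had 19 and 20 reads in wtPC12 and 723 and 651 in hrPC12 (log2 FC 4.89, standard error 0.30). Most tested genes that share a symbol stem with the interferon members were not called, with 1 of 5 higher for Ifi204, 1 of 26 for Ddx60, and 1 higher and 1 lower of 36 for Trim30. The stems Ddx and Trim are broad, so these numbers do not describe the interferon response. Both tested relatives of Gbp1 were higher. Gbp4 had 1 and 3 reads in wtPC12 and 164 and 86 in hrPC12 (adjusted p = 0.00346, edgeR), and Gbp5 had 1 and 0 against 466 and 208 (adjusted p = 0.00218, edgeR). Among the relatives of Tlr1 (15 and 8 reads), Tlr3, the sensor of double-stranded RNA, had 1 read in each wtPC12 library and 2757 and 1188 in hrPC12. The ratio for Tlr3 was 1664, with an exact 95% interval of 460 to 13750 for counting error alone.

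The matrix group has 10 members, which encode extracellular proteins, with sums from 22 to 360 reads and a median of 44.5. Loxl1, which cross-links elastin, had 193 and 167 reads (166 ± 4.0 normalized counts, SD, n = 2, at least 50.5-fold), Hpse2, a relative of heparanase, 84 and 57, Postn, a matrix protein of periosteum, 51 and 44, and Matn1, of cartilage, 42 and 43. The small leucine-rich proteoglycans Lum (22 and 23) and Epyc (14 and 9), the mineralization inhibitor Mgp (23 and 21) and the hyaluronan synthase Has2 (17 and 5) had fewer reads. Of a list of fibroblast markers, in which Lum and Postn are members, 8 genes were tested, 4 were higher and none lower, with a median log2 FC of 2.38. Vim, the intermediate filament of mesenchymal cells, had 3 and 2 reads in wtPC12 and 2326 and 2153 in hrPC12, and Fn1 (fibronectin) 0 and 2 against 216 and 173. Dcn, a proteoglycan whose gene lies beside Lum, had 31 and 21 reads in wtPC12 and 3 and 4 in hrPC12 (log2 FC -3.10, adjusted p = 0.0182, edgeR), and Thy1 had a log2 FC of -0.99, and neither was called. The summed level of these markers was 18867 and 16834 normalized counts in wtPC12 and 19741 and 20926 in hrPC12. Of 6 tested genes of bone and cartilage 2 were higher (Ogn and Chrdl1) and none lower, with a median log2 FC of 2.59, and none was a member.

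The 22 enzymes and protease inhibitors ran from 22 to 1306 reads with a median of 44.5, and 20 of them had at least 10 reads in each hrPC12 library. Cpvl, a carboxypeptidase of macrophages, was the second member of the whole set, with 688 and 618 reads (604 ± 30.3 normalized counts, SD, n = 2). Car3, the carbonic anhydrase of muscle and fat, had 309 and 210 reads (at least 72.0-fold). The glycosyltransferases B3gnt5 (127 and 73) and St6gal1 (73 and 96), the corticosteroid-binding globulin Serpina6 (80 and 70), Aspa, which cleaves N-acetylaspartate (76 and 43), and neprilysin (Mme, 37 and 17) were in the middle of the group. Man1a1, a mannosidase of the Golgi, was read 20 and 4 times, and the ratio of replicate 1 to replicate 2 was higher only in Cpne8 (18 and 3), a calcium-binding protein. In a list of xenobiotic and steroid enzymes 2 of 13 tested genes were lower and none higher, with a median log2 FC of -0.62, and in a list of the retinoid pathway 1 of 11 was higher and 2 were lower, with a median of -0.22. Neither list held a member.

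Car3 belongs to a family with many called members. Of its 9 tested relatives 6 were higher in hrPC12 and 2 lower, with a median log2 FC of 3.79. Car1, an erythrocyte enzyme, had 5 reads in each wtPC12 library and 3430 and 3176 in hrPC12 (log2 FC 9.10, standard error 0.28, adjusted p = 0.000243, edgeR), and Car2 had 6 and 17 against 3104 and 2972. Car12, a membrane-bound form, was lower, with 3324 and 4488 reads in wtPC12 and 172 and 101 in hrPC12 (log2 FC -5.09, standard error 0.28, adjusted p = 0.00055, edgeR). Car3 itself had fewer hrPC12 reads than either Car1 or Car2.

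Among the 11 channels and transporters, Clcn4-2, a chloride/proton exchanger, had 211 and 96 reads, Slc2a13, a myo-inositol transporter, 74 and 59, Fxyd1, which regulates the sodium pump of muscle, 72 and 48, Trpm6, a magnesium channel, 45 and 30, and the drug transporter Abcb5 28 and 28. In a list of solute carriers for organic ions and sugars 3 of 14 tested genes were higher and 2 lower (median log2 FC 0.15) and none was a member. Slc2a1 and Slc2a3, the widespread glucose transporters, were called in opposite directions, with log2 FC 2.09 and -2.41. The group of channels ran from 21 to 307 reads with a median of 55.

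In all, 10 members are chemosensory or germ line genes, and except for Pramef12 (199 and 155 reads) they were read little. The vomeronasal receptors Vom2r61 (65 and 40) and Vom2r4 (15 and 16) and the odorant receptors Olr1220 (25 and 19) and Olr1219 (17 and 9) have near-identical copies, so that their read numbers are uncertain. Tekt5, a filament protein of sperm (12 and 15), Hils1, a histone of spermatids (10 and 12), and Morc1, which silences transposons in male germ cells (10 and 11), had about as many reads in one hrPC12 library as in the other. Of the 21 members placed in no group, Rai14, an actin-binding protein, had 342 and 130 reads and Dapl1, an epithelial protein, 179 and 189. Pmaip1 (NOXA, a pro-apoptotic BH3 protein) with 26 and 17 reads was counted with signalling.

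Beyond the families already named, the members as a whole were set beside their relatives, the genes that share a symbol stem with a member. The stem is the symbol without its final number, and it joins true families such as Tlr as well as loose ones such as Tmem. In 135 stems with 148 members there were 2288 relatives, of which 760 could be tested. Among these, 58 (7.63%) were higher in hrPC12 and 63 (8.29%) lower, with a median log2 FC of -0.09. Over all 13726 tested genes 665 (4.84%) were higher and 749 (5.46%) lower, with a median of 0.06. Relatives of the members were thus called in both directions in similar number. Without wtPC12 replicate 1 only 33 relatives were called higher, and without wtPC12 replicate 2 none. Every relative of Gbp1, Steap4, Cav2 and Synpo2 that could be tested was called higher, as were Steap1 with 1 read in each wtPC12 library and 61 and 55 in hrPC12, and Cav1 with 2 in each and 2183 and 1928. All tested relatives of Cacng1 were lower. Dkk3, a divergent relative of Dkk2, fell by 6.33 on the log2 scale (standard error 0.21, adjusted p = 0.000243, edgeR), from 18862 and 22284 reads in wtPC12 to 316 and 286 in hrPC12. Bmp7, a relative of Bmp8a, had 1086 and 1355 reads in wtPC12 and 3 in each hrPC12 library, and Cpne5, a relative of the calcium-binding Cpne8, 217 and 235 against 2 and 1.

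**Figure D3:**
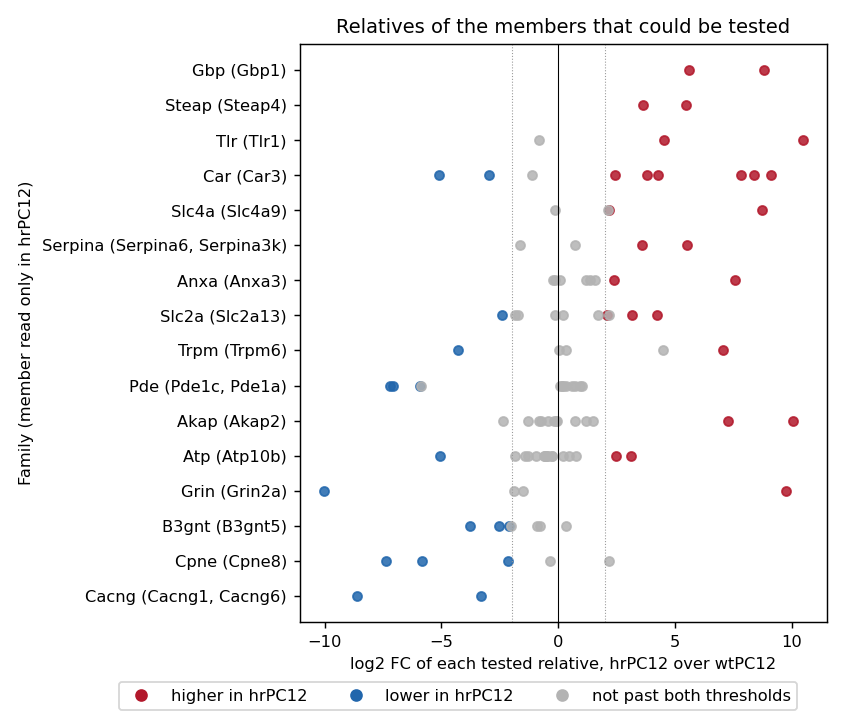
log2 FC (hrPC12 over wtPC12, x axis, edgeR) of each tested relative in 16 symbol stems with at least 2 called and at most 20 tested relatives, 1 line per stem with the member in brackets and 1 point per relative. Not every stem that meets this rule is drawn, and some, such as Atp, are loose stems rather than families. Red points are called higher in hrPC12, blue points lower, and grey points neither, and dotted lines mark a log2 FC of 2 in either direction. Points of Car lie on both sides of 0, both points of Gbp and of Steap are red, and both points of Cacng are blue.

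The lists of endothelial, Schwann cell and nuclear receptor genes had no member in the set. Of 6 tested endothelial markers 1 (Vwf) was higher and none lower, with a median log2 FC of 2.25 and a summed level of 108 and 123 normalized counts in wtPC12 and 693 and 670 in hrPC12. Of 4 tested Schwann cell markers 1 (Pmp22) was higher and 1 (Ngfr) lower, with a median of 0.07 and a summed level of 14733 and 13524 against 23007 and 24996. Of 19 tested nuclear receptors 2 were higher (Nr3c2 and Rorb) and none lower, with a median of -0.19. The part of RNA from other cell types in the reads of the members was not tested.

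Many members lay beside each other, which is described here and was not tested. Genes with reads were put in the order of the rat assembly GRCr8. Genes without reads and genes that could not be placed were passed over, so neighbours in this order need not adjoin on the chromosome. In all, 183 members could be placed, and 33 of them (18.03%) had as a neighbour in this order another gene that was read only in hrPC12. The same held for 368 of 12588 other placed genes (2.92%). With any name it held for 36 of 210 genes (17.14%). The share of members was 12.4% without hrPC12 replicate 1 and 18.9% without hrPC12 replicate 2. Of the 83 placed genes of any name read only in wtPC12, 0 had a neighbour of their own kind, compared with 166 of 12715 other genes (1.31%). In 16 pairs both genes were members. Bcl6, Rtp2 and Sst followed one another, as did Cpne8, Abcd2 and Slc2a13. Other pairs were Rerg and Ptpro, Inhba and Gli3, Il15 and Inpp4b, Myoz2 and Synpo2, Lum and Epyc, Dpt and Xcl1, Capn6 and Dcx, Fibin and Muc15, Odz3 and Wwc2, Ccbe1 and Pmaip1, Loxl1 and Tbc1d21, and the copies Olr1219 and Olr1220. The run from Cpne8 to Slc2a13 and the pairs Il15 and Inpp4b, Odz3 and Wwc2, and Capn6 and Dcx lay where nearby genes were also high in hrPC12 replicate 1, as described below. The pairs join unlike functions in most cases, for example a repressor, an odorant receptor chaperone and a neuropeptide in the first.

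What lay outside the pairs differed. Beside Sst were Rtp4, with 1 and 2 reads in wtPC12 and 257 and 274 in hrPC12, and Masp1, a protease of the complement system, with 11 and 15 against 14373 and 10492. Beside Rerg and Ptpro were Arhgdib with 3 and 8 against 3558 and 3284 and Eps8 with 1 and 1 against 644 and 526, and beside Capn6 and Dcx were Chrdl1 with 4 and 0 against 1102 and 525 and Pak3 with 0 and 2 against 201 and 114. In these 3 places, genes low in wtPC12 reached past the members themselves. Beside Inhba was RGD1308114, with 0 reads in wtPC12 and 1 in each hrPC12 library, and next to it Cdc2l5, with 807 and 1301 reads in wtPC12 and 1468 and 1254 in hrPC12, while RGD1308147 beside Gli3 had 344 and 247 against 401 and 317. Of the 183 placed members, 69 overlap another RefSeq gene, and since the library kit does not mark the strand, reads of overlapping or antisense genes cannot be told apart.

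The promoters of the pairs Inhba and Gli3 and Il15 and Inpp4b are shown since in each pair neighbours with 0 wtPC12 reads have opposite base composition. Capitals mark CpG dinucleotides. The sequences are again from RefSeq, GRCr8, on the strand of the gene. Inhba is at chr17:53804459-53804758 (minus strand), Gli3 at chr17:54405149-54405448 (minus strand), Il15 at chr19:42544456-42544755 (plus strand) and Inpp4b at chr19:43574362-43574661 (minus strand).
Inhba: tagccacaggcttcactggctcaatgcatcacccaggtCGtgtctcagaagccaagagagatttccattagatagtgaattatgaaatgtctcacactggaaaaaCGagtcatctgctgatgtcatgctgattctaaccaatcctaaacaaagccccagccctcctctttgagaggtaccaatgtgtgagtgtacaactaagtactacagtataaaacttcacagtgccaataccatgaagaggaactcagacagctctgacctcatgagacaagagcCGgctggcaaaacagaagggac
Gli3: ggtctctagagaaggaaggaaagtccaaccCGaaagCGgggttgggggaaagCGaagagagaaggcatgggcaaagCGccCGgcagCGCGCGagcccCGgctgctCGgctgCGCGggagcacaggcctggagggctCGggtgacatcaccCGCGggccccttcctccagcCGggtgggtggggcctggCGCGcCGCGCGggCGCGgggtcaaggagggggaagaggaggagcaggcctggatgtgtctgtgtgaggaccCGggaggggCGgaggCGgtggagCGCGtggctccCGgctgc
Il15: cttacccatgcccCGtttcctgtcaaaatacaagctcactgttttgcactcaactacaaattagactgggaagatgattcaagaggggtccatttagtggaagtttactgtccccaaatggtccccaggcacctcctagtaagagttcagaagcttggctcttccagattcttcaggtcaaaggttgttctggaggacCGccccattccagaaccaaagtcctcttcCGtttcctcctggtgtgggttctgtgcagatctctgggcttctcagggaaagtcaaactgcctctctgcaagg
Inpp4b: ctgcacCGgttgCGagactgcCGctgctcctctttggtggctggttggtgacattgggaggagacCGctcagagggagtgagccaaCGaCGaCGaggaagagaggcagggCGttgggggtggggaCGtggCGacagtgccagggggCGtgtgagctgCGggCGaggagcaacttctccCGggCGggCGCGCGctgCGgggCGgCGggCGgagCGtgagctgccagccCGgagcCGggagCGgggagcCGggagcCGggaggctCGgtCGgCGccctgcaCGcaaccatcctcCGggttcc
The promoter of Inhba held 3 CpG dinucleotides in 300 bases and that of Gli3 held 29. Il15 held 3 and Inpp4b 33. The ratio of observed to expected CpG, which corrects for G+C content, was 0.19 and 0.80 in the first pair and 0.17 and 0.89 in the second. Vertebrate promoters fall broadly into those with CpG islands, typical of housekeeping and developmental genes, and those without, typical of tissue-restricted genes, and both kinds are seen within a pair.

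Over the set, a promoter was found for 129 of the 189 members. Their median G+C content was 52.3% and their median CpG ratio 0.44, compared with 60.0% and 0.72 in the 9895 genes with a read and a promoter, and 52.7% and 0.43 in all 24210 promoters. The CpG ratio exceeded 0.6 in 42 members (32.6%), in 27 of 58 genes read only in wtPC12 (46.6%), in 64.1% of genes with a read and in 38.4% of all promoters. Among genes with wtPC12 reads and a sum of hrPC12 reads in the range of the members (20 to 1648) it did so in 62.8%. Read numbers within this range were not matched, and the members had a median sum of 56. The ratio exceeded 0.6 in 45.2% of genes called higher in hrPC12 and in 59.8% of those called lower. The members' promoters were therefore nearer to the promoters of all rat genes than to those of genes read in these cells. The groups differed. The ratio exceeded 0.6 in 6 of 8 regulators of transcription or RNA and 11 of 17 genes of signalling, but in 0 of 7 epidermal genes, 0 of 6 matrix genes, 1 of 12 immune genes and 2 of 10 muscle genes.

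**Figure D4:**
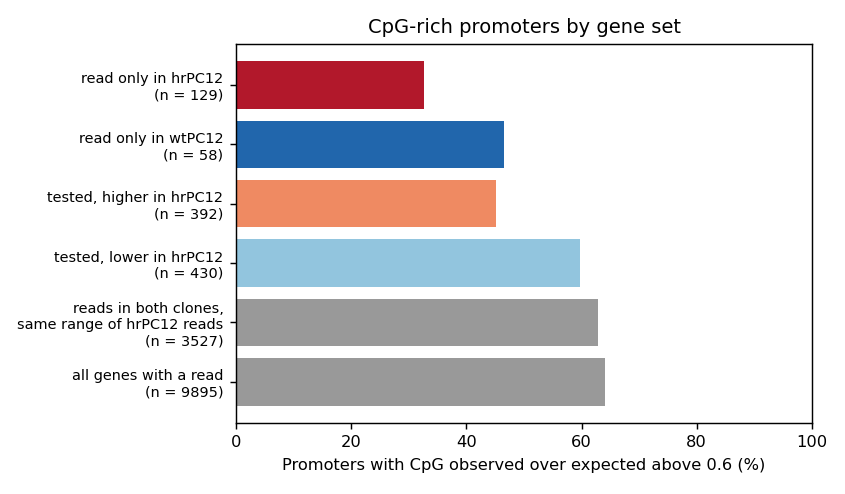
Share of promoters with a CpG ratio (observed over expected) above 0.6 (x axis, percent), 1 bar per gene set with its number of promoters. The bar of the members ends at 32.6%, that of genes read only in wtPC12 at 46.6% and that of all genes with a read at 64.1%.

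Few of the searched elements were common. TATAAA was found, on either strand, in 16.3% of members, 8.21% of genes with a read and 14.3% of all promoters. The AP-1 element TGANTCA was in 6.98%, 5.51% and 7.33%, and the core of interferon-response elements, GAAA repeated after 2 bases of any kind, in 5.43%, 2.87% and 3.74%. The cAMP-response element TGACGTCA was in 2 members, Sst and Odz3 (1.55%, against 2.80% and 1.91%). The Smad element GTCTAGAC was in no member, and in 0.212% of genes with a read and 0.219% of all promoters. The RE1 element of REST was in no promoter of a member, in 1 of the genes read only in wtPC12, in 9 genes with a read (0.0910%) and in 14 of all promoters (0.0578%). These windows are short, and no match says only that the letters are not within them.

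The 2 hrPC12 libraries allow the members to be checked against each other, a property which the rule did not use. With respect to the depth of the libraries 54.4% of the reads of a gene would lie in replicate 1. The normalized counts lay within 2-fold of each other in 170 members (89.9%) and in 88.5% of 6725 other genes in the same range of hrPC12 reads. The median log2 ratio of replicate 1 to replicate 2 was 0.16 in the members and 0.06 in the others. The exact binomial 95% interval for the share of replicate 1 excluded the share of the libraries in 36 members (19.05%), of which 29 were high in replicate 1 and 7 in replicate 2, and in 38.5% of the others. The others held more reads, and with more reads the interval narrows. With 20 to 49 reads it excluded the library share in 12.6% of members and 21.1% of others, with 50 to 199 in 16.7% and 34.8%, and with 200 or more in 43.3% and 43.1%. Within 2-fold lay 83.9% and 71.2%, 97.2% and 82.4%, and 90.0% and 93.8% in the same order, so that members with 200 or more reads stood no closer together than the others. Of the members, 160 had at least 10 reads in each hrPC12 library and 29 did not.

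Part of the members high in replicate 1 lay in stretches of the genome where other genes were high in replicate 1 too. In 35 of the 180 members with measured neighbours, the 6 nearest tested genes had a median log2 ratio of replicate 1 to replicate 2 above 0.4. The same held for 1452 of 10345 tested genes (14.0%), so such stretches are not particular to the members. The median log2 ratio of these 35 members was 0.83, with 34 of them above 0, and that of the other 145 was 0.06, with 80 above 0. The ratio of non-members in such stretches was not set beside it. Synpr, Cugbp2, Inpp4b, Dkk2, Rai14, Wwc2, Clcn4-2 and Rxfp3 were among the 35. Their means in hrPC12 therefore rest more on replicate 1, which had 236166 reads in more than 1 gene against 78907 in replicate 2. The part of these stretches in the size of the set was not tested beyond leaving them out, which left 154 members. The lowest shares of replicate 1 were in Dmrt1 and Cask (both 4 and 17 reads), Ebf2, Pth2r and Csf2rb, and the highest in Cpne8, Man1a1, Gbp1, Has2 (17 and 5) and Dcx.

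**Figure D5:**
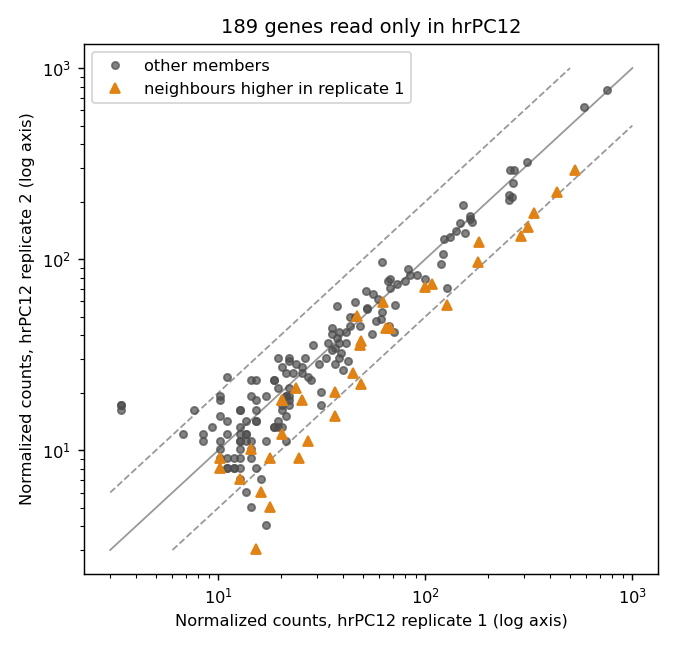
Normalized counts of the 189 members in hrPC12 replicate 1 (x axis, log scale) and replicate 2 (y axis, log scale), with lines for equal values and for 2-fold differences. Triangles mark the 35 members whose neighbours are also higher in replicate 1, of which 34 lie below the line of equal values. 170 of the members lie within the 2-fold lines.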

How the data were processed

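RNA of PC12 clones with low and high REST (wtPC12 and hrPC12, 2 libraries each, numbered in accession order) was sequenced as paired-end reads from libraries of the TruSeq RNA kit v2, which does not mark the strand. The authors deposited raw counts of reads per gene. The submitters' processing notes name TopHat2 2.0.4, HTSeq 0.5.3 and DESeq 1.9.12 and the rat build rn4. The authors' table of DESeq means, fold changes and p values was not used.

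The members, their groups by role and the gene lists were chosen with earlier results of these data known, so none is independent evidence. Genes named are the 30 members with most normalized counts, those at the limits of the rule, those with extreme ratios of the replicates, members of the lists or of a functional group, and called relatives and list genes with the largest log2 FC (up to 3). Arhgdib, Eps8, Masp1, Pak3, Cdc2l5 and RGD1308147, together with list genes below the threshold, were chosen after their values were seen. Some genes that the rule covers are not reported here.

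Counts were normalized with TMM factors (0.942, 1.01, 0.997 and 1.05) in edgeR 4.0.16 (R 4.3.3) and scaled to the mean library. The 13726 genes whose mean was 5 or more normalized counts, with a read in each clone, were compared with the quasi-likelihood test of edgeR (glmQLFit with the legacy option, glmQLFTest) with p values adjusted (Benjamini-Hochberg) over these genes. This filter removes every member. A gene was called where its log2 FC lay past 2 in either direction and its adjusted p under 0.01. Members received no test. Called genes are written as higher or lower. Ratios of genes with 1 to 3 reads in a clone have exact (Clopper-Pearson) intervals. These pool the 2 libraries of each clone and cover counting error only, not the spread between libraries. On simulated counts of 13604 genes, edgeR and DESeq2 found 200 of 200 changed genes and called 0 others. The changed genes were well read and had large changes of fixed size, and all genes had the same dispersion. The simulation therefore checks the running of the tests and does not measure power or false calls in these data. With 2 libraries per clone no exact permutation test of 1 gene can pass 0.05.

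Reads outside genes made up 49.9% to 55.9% of the reads accounted for. The floor of 3 reads is 2.54 to 3.49 normalized counts. Gene order and promoters are from RefSeq GRCr8, matched by symbol. Elements were searched on both strands. TGANTCA, TGACGTCA and the other elements may overlap each other. Alternatives were other read limits, RLE factors, DESeq2 1.42.0, no filter, and each library left out. After the data were seen, members with neighbours high in hrPC12 replicate 1 were also left out, and the neighbours were recounted without each hrPC12 library.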

Additional observations from a re-analysis of the deposited data

How the results depend on the processing

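The number of members depends on the limits of the rule: 189 became 286 with at least 10 hrPC12 reads, 102 with at least 50, 285 with at most 1 wtPC12 read and 441 with at most 3 reads in each wtPC12 library, and it ran from 174 to 265 with 1 library left out. It was 160 with at least 10 reads in each hrPC12 library, 174 with normalized counts and 154 without members whose neighbours were high in hrPC12 replicate 1. Without hrPC12 replicate 1 or 2, 165 and 184 of the 189 were members. The ratio to genes read only in wtPC12 was lowest, 1.42, without hrPC12 replicate 1 and highest, 3.63, without wtPC12 replicate 2. Relatives called higher (58) and lower (63) numbered 69 and 76 with RLE factors, 69 and 76 with DESeq2, and 72 and 81 with every gene that had a read. With a library left out they ran from 0 to 67 and 0 to 68, and without wtPC12 replicate 1 the number higher was 33. The list genes called higher (26) and lower (20) numbered 31 and 26, 30 and 24, and 41 and 28 under the same settings, and 0 to 30 and 0 to 22 with a library left out, with 17 higher without wtPC12 replicate 1. The counts of 0 came without wtPC12 replicate 2, where edgeR called 0 of 13590 genes at an adjusted threshold of 0.01 while 6798 had an unadjusted p under 0.05. A fit without 1 library assumes that the lone library varies like the others. Members beside a gene read only in hrPC12 were 12.4% and 18.9% without hrPC12 replicate 1 and 2. The share of promoters with a CpG ratio above 0.6 was 31.2% in members with at least 10 reads in each library. No paired analysis was possible because the replicate numbers were given in accession order and the sample titles of the clones share fewer than 2 replicate marks. With a median of 56 reads, most members lie close to the limit of detection, and an absence in wtPC12 holds only to 3 reads per library.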
